A study of Anser anser with 2 samples.

Results

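The miRNAs miR-451, miR-144 and miR-486 are known from red blood cells, and their reads were followed here in goose liver. Members were all listed read sequences (tags) whose best matching reference, of any species, was named miR-144, miR-451 or miR-486. This gave 5 mature forms out of 1174 in the series: miR-451, its star form, miR-144-3p, miR-144-5p and miR-486-5p. Small RNA was sequenced from 1 overfed and 1 control liver library. The birds of either library were male Landes geese, a breed used for fatty liver, aged 90 days, and 60 birds entered the experiment. In the overfed group the feed was rich in carbohydrate (3353 kcal per kg, with 76 g protein and 15 g fat) and was given for 21 days, and that liver is labelled as fatty. Control birds had free access to basal feed with 2873 kcal per kg, of which each kg held 171 g protein, and their liver is labelled as normal. The number of birds behind a library is not stated in the sources used.

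The miR-144 and miR-451 hairpins lie side by side in mammals and chicken, and in mouse both come from a shared transcript that the erythroid factor GATA1 switches on as red cells mature. miR-144 is cut by Dicer like most miRNAs. miR-451 is not: its hairpin is too short for Dicer and is sliced by Argonaute 2, after which the 3′ end of the guide is trimmed back base by base. miR-486 lies in an intron of the ankyrin gene ANK1 in mammals and is abundant in mammalian red cells and muscle. Bird red cells keep their nucleus.

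The overfed library held 9737540 listed miRNA reads in 18072 tags and the control library 9178938 reads in 17203 tags. Of these, 3100 overfed and 3302 control reads belonged to the members, in 120 overfed and 107 control tags. With 1 library per group no difference has a replicate check, and no test between the diets is possible. All intervals are 95% intervals for counting error only, and all but those for differences of shares are exact. The hepatocyte miRNA miR-122-5p gave 743632 RPM (reads per 1000000 of the listed reads) in the overfed library and 726548 in the control library, so the marker of the labelled tissue was the main miRNA of both.

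The most common tags of miR-451, miR-144-3p and miR-144-5p are given below, with the most common miR-144-3p tag that starts 1 base earlier. The results on level, length and target recognition turn on where these tags start and end. They are the deposited read sequences, from 5′ to 3′, with the seed (bases 2 to 8, which chiefly set the targets) in capitals.
miR-451, 23 nt: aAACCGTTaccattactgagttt
miR-451, 22 nt: aAACCGTTaccattactgagtt
miR-451, 18 nt: aAACCGTTaccattactg
miR-451, 22 nt and an added A: aAACCGTTaccattactgagtta
miR-144-3p, 20 nt: tACAGTATagatgatgtact
miR-144-3p, 19 nt: tACAGTATagatgatgtac
miR-144-3p, 18 nt: tACAGTATagatgatgta
miR-144-3p, starting 1 base earlier: cTACAGTAtagatgatgt
miR-144-5p, 23 nt: gGATATCAtcgtatactgtaagt
miR-144-5p, 22 nt: gGATATCAtcgtatactgtaag

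The first question was how much of these miRNAs the livers held. miR-451, the guide strand of its hairpin, had 1749 reads in the overfed library and 1796 in the control library, or 180 RPM (171 to 188) overfed and 196 RPM (187 to 205) control. It stood in place 47 of 1174 in the overfed library, between miR-221-5p (185 RPM) and miR-30c-1-3p (174 RPM). In the control library it stood in place 46, between miR-30e-5p (205 RPM) and miR-30c-1-3p (171 RPM). Except for miR-30c-1-3p in the control library, these neighbours lay within the counting interval of miR-451.

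miR-144-3p, the main arm of its hairpin, had 1177 overfed and 1379 control reads, or 121 RPM (114 to 128) overfed and 150 RPM (142 to 158) control, in places 56 overfed and 49 control. miR-144-5p, the minor arm, had 168 overfed and 124 control reads, or 17.3 RPM (14.7 to 20.1) overfed and 13.5 RPM (11.2 to 16.1) control. The order of the members was therefore miR-451, miR-144-3p and miR-144-5p in either library, with intervals that do not overlap. RPM compares reads, and the ease with which each miRNA enters a library can differ.

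miR-486-5p had 2 reads in the overfed library and 1 in the control library. Since a count of 0 allows up to 3 reads, or 0.308 RPM in the overfed and 0.327 RPM in the control library, no ratio is given for it. No tag was listed under the other arm of miR-486. The label of a red cell group therefore rests on miR-451 and miR-144 in these livers.

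**Figure D1:**
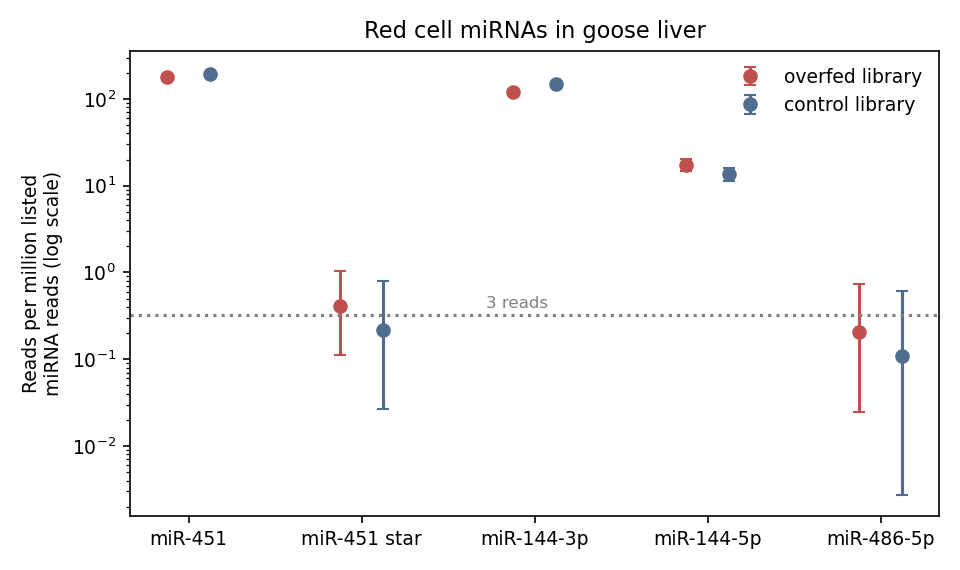
Level of the 5 member forms in RPM, on a log scale, in the overfed (left of each pair) and control library; bars are exact 95% Poisson intervals for counting error and the dotted line marks 3 reads. miR-451 (180 RPM overfed, 196 RPM control) and miR-144-3p (121 RPM overfed, 150 RPM control) stand well above the line, while miR-486-5p lies below it.

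The comparison of fatty with normal liver gave differences of less than 2 times for every member with at least 10 RPM. miR-451 had a log2 ratio of overfed over control of -0.12 (-0.22 to -0.03) and miR-144-3p one of -0.31 (-0.43 to -0.20). miR-144-5p went the other way, with 0.35 (0.01 to 0.70). Over all member reads the log2 ratio was -0.18 (-0.25 to -0.11), with 318 RPM in the overfed and 360 RPM in the control library.

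A miRNA was called by size when its mean level reached 10 RPM and it stood 2 times or more higher or lower with an interval on 1 side of no change. By this rule 0 of these 3 members were called, against 8.76% of the 137 miRNAs that reached 10 RPM (7.3% higher and 1.46% lower). These were 10 higher and 2 lower miRNAs, against 3 higher and 7 lower with edgeR's TMM factors and 7 higher and 4 lower with DESeq2's factors, and no member was among them with any of the 3 scalings. Beyond counting error, 2 of the 3 were lower in the overfed library, against 32.8% of the 137, and 1 was higher, against 43.8%. Of the 137 miRNAs, 46 had a lower ratio than miR-451, 29 a lower one than miR-144-3p and 36 a higher one than miR-144-5p, around a median of 0.08. What lies behind these differences was not tested. In whole liver RNA, the number of red cells and the miRNA per red cell cannot be told apart.

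Scaling shifts all ratios by 1 constant, by -0.23 with edgeR's TMM factors. miR-451 and miR-144-3p stayed below 0 and miR-144-5p above 0 with each scaling, but the intervals of miR-451 without miR-122 reads in the total (-0.03, -0.13 to 0.07) of miR-144-5p with TMM factors (0.12, -0.22 to 0.47) and of miR-144-5p with DESeq2's median-of-ratios factors (0.26, -0.08 to 0.61) included 0. Set against hepatocyte reads, miR-451 had 242 reads per 1000000 miR-122-5p reads (230 to 253) in the overfed and 269 (257 to 282) in the control library. miR-144-3p had 163 (153 to 172) in the overfed and 207 (196 to 218) in the control library. As miR-122-5p makes up most listed reads, these values nearly repeat the comparison by RPM. Between the members, there were 1.49 miR-451 reads for each miR-144-3p read in the overfed library (1.38 to 1.60). In the control library there were 1.30 (1.21 to 1.40). These intervals overlap, which does not by itself show equal ratios, and no interval for their difference was computed.

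**Figure D2:**
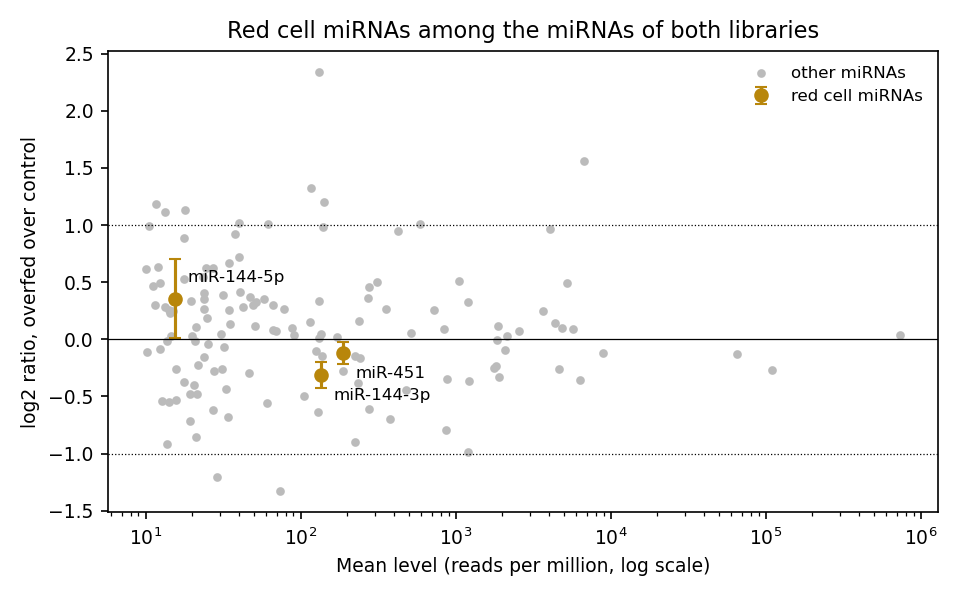
Log2 ratio of overfed over control against mean level (RPM, log scale) for the 137 miRNAs with at least 10 RPM; the 3 members that pass are in colour with exact 95% intervals, and dotted lines mark 2 times in either direction. miR-451 (-0.12), miR-144-3p (-0.31) and miR-144-5p (0.35) lie between the dotted lines.

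Both arms of the miR-144 hairpin were read, and the split between their listed reads differed. Reads below 18 nt are not listed, and 18 nt was the most common length of miR-144-3p in either library. For miR-144-5p it was 22 nt overfed and 23 nt control. The shares can therefore miss more reads of miR-144-3p than of miR-144-5p, and how this bears on the split was not tested. miR-144-5p made up 12.5% (10.8% to 14.4%) of miR-144 reads in the overfed library and 8.25% (6.91% to 9.76%) in the control library. These intervals do not overlap. A minor arm share that was higher in this sense was found in 15% of 60 hairpins with at least 100 reads in each library, and a lower one in 5%. The median minor arm share of the 60 was 1.43% overfed and 2.17% control. From the top, miR-144 stood in place 18 overfed and 19 control. Its minor arm was thus read more than that of most of the 60 pairs as listed in either library.

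The arm split depended on read length. With reads of at least 21 nt, 138 overfed and 101 control reads of miR-144-5p were left, against 73 overfed and 103 control reads of miR-144-3p. The share of the 5p arm was then 65.4% (58.6% to 71.8%) in the overfed and 49.5% (42.5% to 56.6%) in the control library. At this length the 5p arm had more reads than the 3p arm in the overfed library, while in the control library the interval included equal shares.

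**Figure D3:**
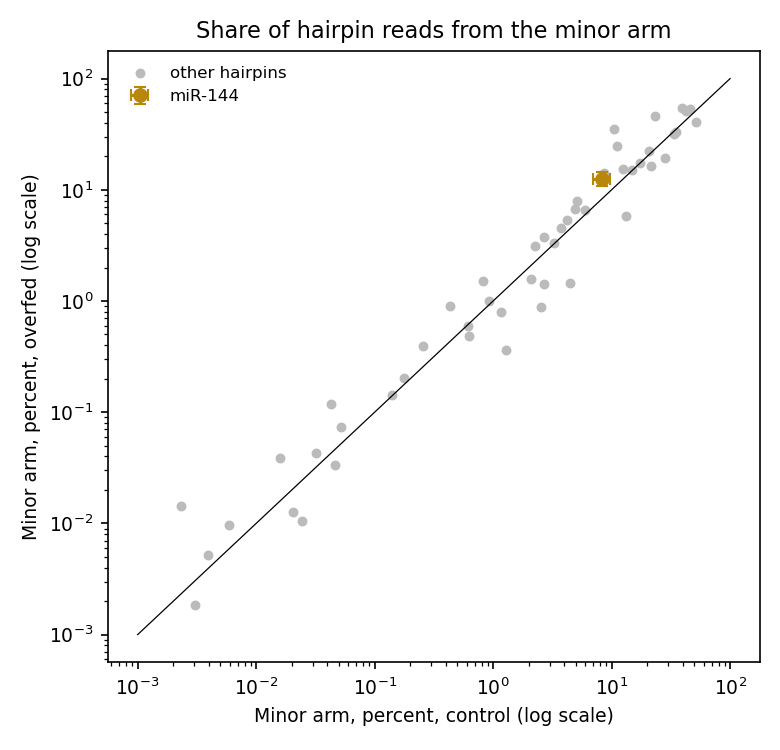
Share of a hairpin's reads that come from its minor arm, in the overfed (vertical) and control (horizontal) library, on log scales, for the 52 of 60 hairpins with reads of the minor arm in each library; bars on miR-144 are exact 95% intervals and the line marks equal shares. miR-144 lies above the line, at 12.5% overfed and 8.25% control.

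The 3′ ends were compared over reads that share the most common 5′ end. miR-451 reads were most common at 22 and 23 nt, with more reads at 18 nt, the shortest length listed, than at 19 nt. Shorter forms are not listed, so whether 18 nt is a peak cannot be told. Among miRNAs whose most common length was 21 nt or more, 9 of 40 overfed and 11 of 42 control had this rise. These come from the 53 miRNAs with 1000 reads or more in both libraries. By 18 nt share miR-451 stood 9th of the 53 overfed and 10th control. In the overfed library 42.0% (39.6% to 44.4%) had 23 nt, 38.8% (36.5% to 41.2%) had 22 nt and 9.44% (8.09% to 10.9%) had 18 nt, with no more than 2.50% at each length from 19 to 21 nt. In the control library 47.7% (45.3% to 50.0%) had 23 nt, 38.1% (35.9% to 40.5%) had 22 nt and 5.36% (4.36% to 6.51%) had 18 nt. The 18 nt share was higher in the overfed library with intervals apart, as it was for 30.2% of the 53 miRNAs with 1000 reads or more in both libraries; 1.89% had a lower one.

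By level, the 18 nt tag of miR-451 stood at 16.4 RPM (160 reads) in the overfed and 10.2 RPM (94 reads) in the control library, a log2 ratio of 0.68 (0.31 to 1.07). The 23 nt tag stood at 67.6 RPM (658 reads) overfed and 82.6 RPM (758 reads) control, a log2 ratio of -0.29 (-0.44 to -0.14), and the 22 nt tag at -0.10 (-0.25 to 0.06). Reads of 23 nt or more made up 46.9% (44.5% to 49.3%) of miR-451 in the overfed and 51.9% (49.6% to 54.3%) in the control library. A lower share of such reads, with intervals apart, was found in 49.1% of the 53 miRNAs and a higher one in 5.66%. Reads of 20 nt or less made up 12.6% (11.1% to 14.3%) of miR-451 in the overfed and 8.58% (7.32% to 9.98%) in the control library, and a higher share of these, with intervals apart, was also found in 49.1% of the 53. miR-451 therefore moved as a large part of the abundant miRNAs of these libraries did.

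miR-144-3p was read in shorter forms. In the overfed library 44.2% (41.3% to 47.1%) of its reads had 18 nt, 28.7% (26.0% to 31.4%) had 19 nt and 21.6% (19.2% to 24.1%) had 20 nt. In the control library these were 39.0% (36.3% to 41.7%), 28.4% (25.9% to 30.9%) and 26.0% (23.7% to 28.5%). Its most common length is the shortest that the files list, so forms below 18 nt were not analysed here, and the gel is stated to have taken fragments of 20 to 30 nt. Reads of 18 and 19 nt were 2.06% of all listed reads in the overfed and 1.53% in the control library. Most listed reads were of miR-122-5p, so single miRNAs can differ from this. By 18 nt share, miR-144-3p stood 4th of 53 miRNAs overfed and 3rd control. For 4 of the 53 overfed and 3 control, 18 nt was the most common length, miR-144-3p among them.

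Along the miR-144-3p tags, the log2 ratio was -0.12 (-0.30 to 0.06) for 18 nt, -0.30 (-0.52 to -0.08) for 19 nt and -0.57 (-0.81 to -0.32) for 20 nt. Longer tags of miR-144-3p thus had lower ratios, with intervals that overlap between neighbouring lengths but lie apart for 18 and 20 nt. For miR-451 the interval of the 18 nt tag lay above those of the 22 and 23 nt tags, which overlap. miR-144-5p had 47.2% (39.4% to 55.2%) of reads at 22 nt and 30.1% (23.1% to 37.7%) at 23 nt in the overfed library, and 37.2% (28.6% to 46.4%) at 22 nt and 39.7% (30.9% to 49.0%) at 23 nt in the control library. Its 18 nt share, 12.9% (8.16% to 19.02%) overfed and 17.4% (11.1% to 25.3%) control, overlapped between the libraries.

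**Figure D4:**
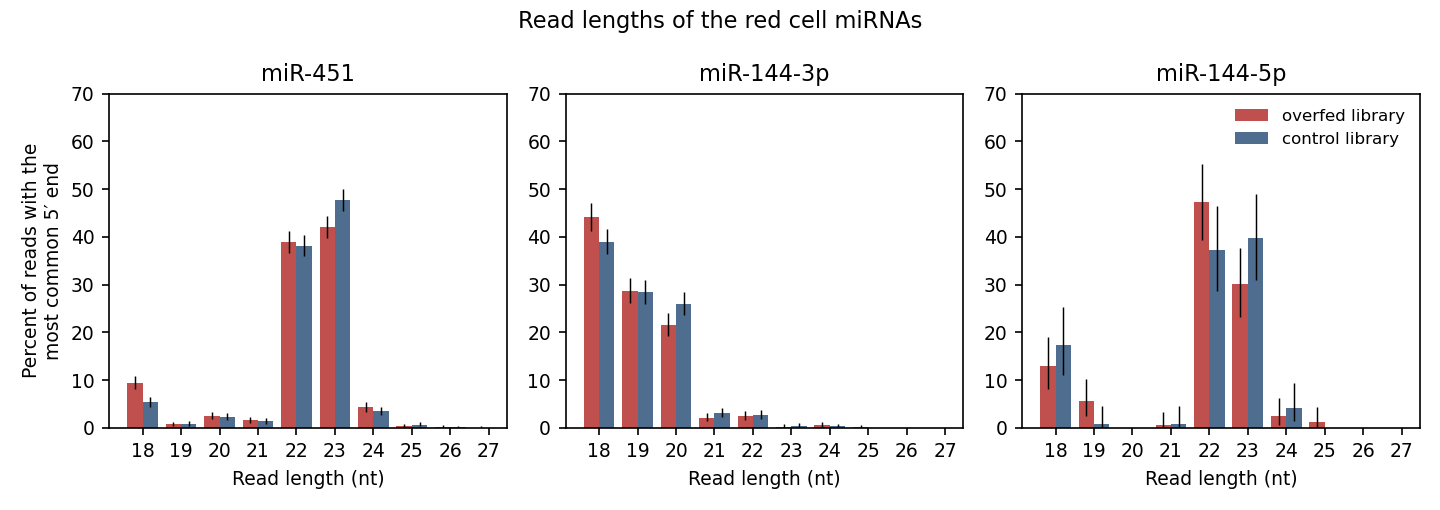
Percent of reads at each length (nt) for miR-451, miR-144-3p and miR-144-5p in the overfed (left bar) and control library, over reads with the most common 5′ end, with exact 95% intervals. miR-451 peaks at 22 to 23 nt and rises again at 18 nt, the shortest length listed. miR-144-3p is highest at 18 nt (44.2% overfed, 39.0% control).

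As a measure of spread, 58.0% (55.6% to 60.4%) of miR-451 reads in the overfed library and 52.3% (50.0% to 54.7%) in the control library lay outside the most common length, 23 nt in either. This placed miR-451 9th of 53 miRNAs in the overfed and 19th in the control library, where the medians were 45.4% overfed and 48.1% control. A higher share, with intervals apart, was found in 17% of the 53 and a lower one in 32.1%. Over tags without a mismatch, the most common length of miR-451 was 22 nt overfed and 23 nt control. Then 59.6% overfed and 54.4% control of its reads lay outside that length. For miR-144-3p, with all tags again, the share was 55.8% (52.9% to 58.7%) overfed and 61.0% (58.3% to 63.7%) control, in places 11 overfed and 6 control. These intervals overlap, but the difference of -5.21 percentage points had an interval of -9.11 to -1.30, which excludes 0. The 3 miRNAs whose read lengths, set against their own most common length, were most like those of miR-451 were miR-143-3p, miR-103a-3p and miR-146b-5p. Their mean distances over the 2 libraries (the summed absolute differences of shares, divided by 2) were 0.11, 0.11 and 0.12, against a median of 0.43 over the 52 miRNAs compared. Their most common lengths were 21, 23 and 24 nt, and in the overfed library 0.34%, 0% and 0.35% of their reads had 18 nt, against 9.44% for miR-451. Nothing below 18 nt is listed, so the cut lies nearer to the most common length of miR-143-3p than to that of miR-451. The distance therefore does not cover forms of miR-143-3p below the cut.

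Few miR-451 reads ran past the 23 nt form, and they show the bases that follow it. A 25 nt tag had 2 overfed and 6 control reads and a 26 nt tag 3 overfed and 2 control reads. Reads listed as miR-451 star numbered 4 in the overfed and 2 in the control library, of which 3 overfed and 2 control reads overlap that run. The first 6 bases of the 21 nt star tag (1 overfed read) equal the last 6 of the 26 nt tag. Joined on them, the tags give a stretch of 41 bases, in which capitals mark the 23 nt guide.
miR-451 precursor stretch: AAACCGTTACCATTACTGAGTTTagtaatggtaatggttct
RNAfold gave this stretch a hairpin of 17 base pairs with a minimum free energy of -22.7 kcal per mol. Bases 2 to 18 pair on the 5′ side and bases 19 to 22 form the loop, so the guide crosses the loop. The 18 nt form ends at the last paired base before the loop. As 18 nt is also the shortest length listed, whether the fold sets this end was not tested. The fold is a prediction, and the join was not set against a goose genome.

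Measured against this stretch, most miR-451 reads ended without an added base that differs from it. Such reads made up 93.3% (92.0% to 94.4%) in the overfed library and 92.7% (91.4% to 93.9%) in the control library. An added base equal to the next base of the stretch, such as A behind base 18 or 23, counts as following it. These shares can therefore include reads with added bases, and the stretch was joined from the same reads. Reads with 1 to 3 bases at the 3′ end that do not follow the stretch made up 5.77% (4.71% to 6.98%) overfed and 6.09% (5.03% to 7.31%) control. The most common such form, 22 nt with an added A, made up 3.09% (2.32% to 4.02%) in the overfed and 4.12% (3.24% to 5.15%) in the control library. The form of 23 nt with an added T made up 1.16% (0.71% to 1.79%) overfed and 0.56% (0.27% to 1.04%) control. All these intervals overlap between the libraries. Reads that follow the stretch beyond 23 nt made up 2.74% (2.02% to 3.62%) overfed and 2.71% (2.004% to 3.58%) control. Most of them, 42 overfed and 40 control reads, were the 24 nt tag, which cannot be told from 23 nt with an added A. Past 24 nt the shares were 0.29% overfed and 0.45% control. Mismatches inside the read were found in 0.93% overfed and 1.19% control.

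**Figure D5:**
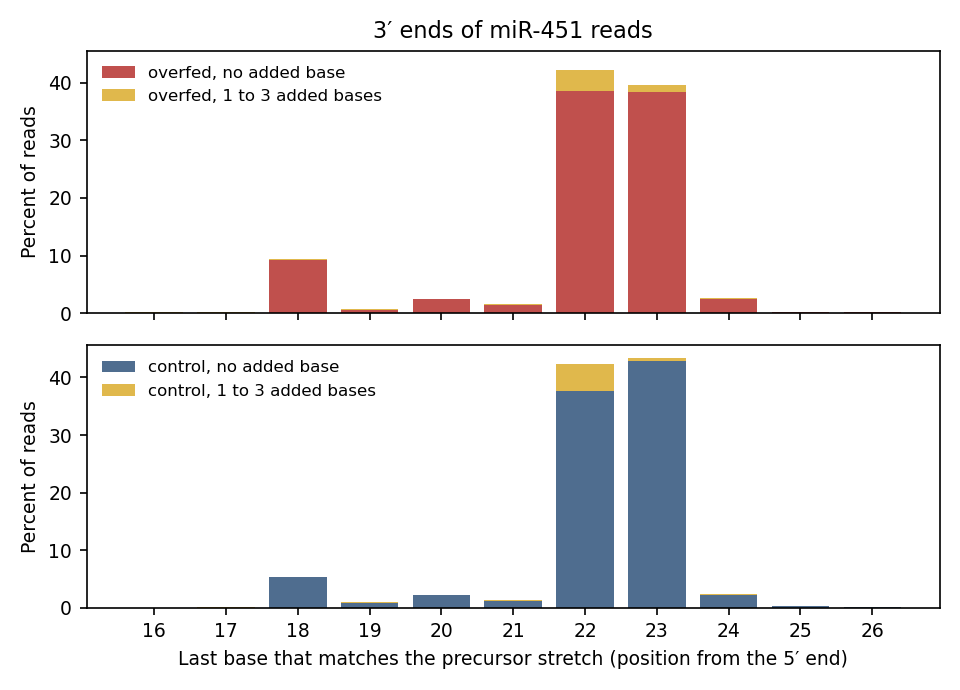
Percent of miR-451 reads by the last base that matches the precursor stretch, counted from the 5′ end, in the overfed (top) and control library; yellow marks reads with 1 to 3 added bases. Added bases that differ from the stretch stand mostly behind base 22, and few stand behind base 18. An A added behind base 18 or 23 equals the next base of the stretch and is not marked.

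The 5′ ends, which set the seed, were more uniform than the 3′ ends. The most common 5′ end was used by 98.2% (97.4% to 98.7%) of miR-451 reads in the overfed and 98.7% (98.0% to 99.1%) in the control library, and by 97.0% overfed and 97.6% control of miR-144-5p reads. For miR-144-3p it was 96.3% (95.1% to 97.3%) overfed and 95.6% (94.4% to 96.7%) control, and 3.06% (2.15% to 4.21%) overfed and 3.70% (2.77% to 4.83%) control started 1 base earlier. The most common seeds of miR-451 (AACCGTT) and miR-144-5p (GATATCA) were carried by no read of another miRNA in either library.

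The seed of miR-144-3p bears on miR-101a-3p, an abundant liver miRNA with a similar start. The most common tag of miR-101a-3p is shown with its seed in capitals.
miR-101a-3p, 19 nt: gTACAGTActgtgataact
This seed, TACAGTA, is also that of the miR-144-3p form that starts 1 base earlier. miR-101a-3p reads with it stood at 2961 RPM in the overfed and 3195 RPM in the control library, against 3.70 RPM overfed and 5.56 RPM control of miR-144-3p. The main seed of miR-144-3p, ACAGTAT, was nearly its own, with 116 RPM in the overfed and 143.8 RPM in the control library, against 1.44 RPM overfed and 0.87 RPM control from other names. Over bases 2 to 7 alone (ACAGTA), miR-144-3p gave 5.52% of the 2111 RPM of reads with that start in the overfed library and 4.91% of 2926 RPM in the control library. Of this total miR-101a-3p gave 1236 RPM in the overfed and 1817 RPM in the control library, and the remainder came from other names. Reads of miR-144-3p were thus a small part of those that begin alike. Since the same start is shared, RPM by seed and RPM by name are different quantities.

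Other miRNAs of blood and liver cells were read beside the members, from lists chosen with earlier results known. Of 9 miRNAs abundant in mammalian red cells, 5 passed 10 RPM, with 4 higher and 1 lower beyond counting error and a median log2 ratio of 0.35. Over all 137 miRNAs, 43.8% were higher and 32.8% lower, with a median of 0.08. With edgeR's TMM factors the list had 1 higher and 1 lower, with a median of 0.12, against 20.4% higher and 48.2% lower over the 137 with a median of -0.15. With DESeq2's factors it had 2 higher and 1 lower, against 32.8% and 37.2%. The list summed to 551 RPM in the overfed and 472 RPM in the control library. miR-92a-3p, a cell growth miRNA of the miR-17 cluster, had 305 RPM overfed and 237 RPM control (log2 ratio 0.36, 0.28 to 0.44). miR-22-3p had 130 RPM overfed and 143.8 RPM control (log2 ratio -0.14, -0.25 to -0.03). The members of the list below 10 RPM had few reads. miR-96, listed without its arm, had 2 overfed and 7 control reads (log2 ratio -1.89, -5.20 to 0.50). miR-25-3p went the other way, with 10 overfed reads and 1 control read (3.24, 0.42 to 8.68). miR-182-5p had 6 overfed and 5 control reads and miR-183-5p 2 in each library.

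Of 7 miRNAs that regulate red cell formation, 5 passed, with 3 higher and 2 lower beyond counting error and a median of 0.62, beside the same 43.8%, 32.8% and 0.08 over the 137. Its counts were also 3 and 2 with TMM and with DESeq2's factors, and 3 and 0 without miR-122 in the total. Over the 137, 20.4% were higher and 48.2% lower with TMM, and 32.8% and 37.2% with DESeq2's factors. Without miR-122 in the total these shares were 52.6% and 27%. miR-222-3p, which represses the receptor KIT in human red cell progenitors, met the rule of size at 10100 RPM overfed and 3429 RPM control (log2 ratio 1.56), and miR-221-3p of the same cluster had 5403 RPM overfed and 2769 RPM control (0.96). Other liver cells also express both. Of 8 leukocyte and thrombocyte miRNAs, 3 of which (miR-223-3p, miR-150-5p and miR-155-5p) also stand in the list before, 6 passed, with 2 higher and 2 lower and a median of -0.09, where the 137 had 43.8%, 32.8% and 0.08. With TMM factors 1 of the 6 was higher and 4 were lower, beside 20.4% higher and 48.2% lower over the 137. The list summed to 225 RPM in the overfed and 209 RPM in the control library. Its most abundant members were miR-126-5p at 73.3 RPM overfed and 59.5 RPM control and miR-142-5p at 70.9 RPM overfed and 67.4 RPM control. The arms of miR-126 went opposite ways, with log2 ratios of 0.30 (0.14 to 0.47) for miR-126-5p and -0.40 (-0.70 to -0.10) for miR-126-3p. Whether miR-126 reads came from leukocytes and thrombocytes was not tested. miR-155-5p had 3 overfed and 0 control reads, within the floor of 3 reads. Of 5 hepatocyte miRNAs, 3 passed, with 2 higher and 1 lower, again beside 43.8% and 32.8% of the 137, and a median of 0.03, which is miR-122-5p. That value turns to -0.20 with TMM and -0.06 with DESeq2's factors, and 1 was then higher and 2 lower. The 137 had 20.4% higher and 48.2% lower with TMM, and 32.8% and 37.2% with DESeq2's factors. By RPM, the 2 higher ones were the 2 arms of 1 hairpin, miR-122-5p and miR-122-3p. miR-122-3p had 322 RPM overfed and 234 RPM control (log2 ratio 0.46, 0.38 to 0.54). The lower one, miR-148a-3p, had 287 RPM overfed and 465 RPM control (log2 ratio -0.69). miR-194-5p, below 10 RPM, had 14 overfed and 6 control reads (log2 ratio 1.14, -0.33 to 2.80). miR-192, listed without its arm, had 4 overfed and 0 control reads. The part of these cell types in the members' values was not tested.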

How the data were processed

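Trizol was used for RNA extraction from liver, fragments of 20 to 30 nt were cut from a gel of 10 μg RNA, and libraries followed Illumina's standard procedure, per the labels' protocols. The authors deposited, for each of the 2 libraries, the raw count of every distinct tag that matched a miRNA, with its length, its best matching reference of any species and the number of mismatches, 0 to 2. Tags have 18 to 31 nt. The sources used here name neither aligner nor miRNA database, and the totals are of listed miRNA reads, not of the library. The shortest length and the unlisted reads limit what can be said of short forms.

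Tags were summed over species by name and arm; names lacking a letter or arm were joined with fuller names of the same number whose references had a common run of 18 bases or more that missed no more than 2 bases of the shorter. Member tags came under 12 reference names, and no other name held their core sequence. Star names of miR-144 were taken as its 5p arm. Levels are RPM with exact Poisson intervals. Ratios have exact conditional binomial intervals and shares exact Clopper-Pearson intervals. Differences of shares have Newcombe intervals, which are not exact. For 1 read the level is 0.103 RPM overfed and 0.109 RPM control. No pseudocount was added. PCR copies were not told apart by molecular identifiers, so intervals and the floor of 3 counts cover counting error only. The 5′ end of a tag was read from its first 8 bases. The members and lists were chosen with earlier results of these data known. Named miRNAs are the members, their neighbours in level and the 3 most like miR-451 in read length. Per list, the 2 most abundant and those past the rule of size are also named. Chosen after values were seen were miR-101a-3p, miR-96, miR-25-3p, miR-182-5p, miR-183-5p, miR-192, miR-155-5p and miR-126-3p. So were miR-122-3p, miR-194-5p, miR-139*, miR-199 and miR-199a. Listed miRNAs whose mature form carries no arm in the files were matched by number. The scaling of the list counts was added after seeing the data. The interval and rule were tested on simulated Poisson counts without variation between birds or libraries, so that test covers counting error only. As alternatives, scaling used TMM factors (edgeR), median-of-ratios factors (DESeq2) or totals without miR-122, tags were kept without a mismatch, from 21 nt or with the most common 5′ end, and the minimum was changed. Computations used Python 3.11.15, numpy 2.4.6, pandas 2.3.3, scipy 1.17.1, matplotlib 3.10.9, RNAfold 2.7.2, R 4.3.3, edgeR 4.0.16 and DESeq2 1.42.0. No genome coordinates are given, since no goose genome was used here.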

Additional observations from a re-analysis of the deposited data

How the results depend on the processing

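No paired analysis was possible because neither diet has a second library, and for the same reason no replicate could be left out. miR-486-5p has too few reads for a ratio or an arm share under any setting. Of 36 alternatives for the members and the rule of size, 25 were classed as the same. This meant a value inside the counting interval of the value reported or, for counts, within 1.5 times of it. For the standard deviation (SD) of read length it meant only the same direction. Counts were classed by their total alone, whatever the direction. The rule of size with TMM factors was thus classed as the same, although most called miRNAs were then lower. With TMM factors, miR-451 stood at -0.36, miR-144-3p at -0.55 and all member reads at -0.41; all member reads stood at -0.27 with median-of-ratios factors and -0.083 without miR-122 in the total, since scaling shifts all ratios together. With tags of at least 21 nt, miR-144-3p stood at -0.58 on 73 overfed and 103 control reads, and the minor arm share of miR-144 was 15.9 percentage points higher in the overfed library, against 4.24 points with all tags, because most miR-144-3p reads are shorter. The share of miR-144-3p reads outside the most common length, 5.21 points lower in the overfed library (-5.21), turned to 2.15 points higher with tags of at least 21 nt (interval -13.7 to 17.7), and the SD of its read length was 0.0021 nt higher in the overfed library, at 1.09 nt in each; its length spread therefore has no stable direction. The 12 miRNAs past the rule of size (10 higher, 2 lower) became 47 without a minimum and 5 with a minimum of 100 RPM, with more and fewer miRNAs compared; TMM factors gave 3 higher and 7 lower and median-of-ratios factors 7 higher and 4 lower. In each of these settings 0 members were called.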
